A study of Mus musculus with 6 samples.

Results

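Of the 28892 genes in the expression table, 6 were followed here by their symbols: Adar, Adarb1, Apobec1, Apobec2, Apobec3 and Samhd1, the ADAR and APOBEC genes and an interferon-linked enzyme of nucleotide metabolism. They were compared between 3 libraries of C2C12 WT cells and 3 libraries of C2C12 Myod1-/- cells, both kept for 6 days in Ndiff227, a medium without serum. C2C12 is a myoblast line that goes back to satellite cells in the thigh of a C3H mouse, and Myod1 encodes a transcription factor that starts muscle differentiation. The knockout was made by CRISPR/Cas9 delivered with a lentivirus under puromycin selection, and all 3 knockout libraries came from 1 clone. According to the study's text, C2C12 WT cells formed myotubes in this medium and C2C12 Myod1-/- cells formed floating spheres. It describes no lentivirus or selection for the C2C12 WT cells. Genotype, clone, lentiviral delivery with selection, and cell state therefore cannot be told apart.

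ADAR enzymes bind double-stranded RNA and turn adenosine into inosine, which ribosomes and sequencers read as guanosine. Adar gives a long form, p150, from a start site that interferon induces, and a shorter form, p110, that is made constitutively. Adarb1 encodes ADAR2, known for editing glutamate receptor transcripts in the brain. The APOBEC family acts on cytidine: Apobec1 edits the apolipoprotein B transcript in the mouse gut and liver, Apobec3 restricts retroviruses, and Apobec2 is a family member of heart and skeletal muscle for which no editing target is firmly established. Samhd1 is no deaminase, but a hydrolase that breaks down dNTPs, the building blocks of DNA, and it is counted among the antiviral genes linked to interferon.

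Promoter windows are shown because 2 sequence classes bear on this comparison, the E-box bound by muscle transcription factors and the GAAA repeat of interferon response elements. RefSeq (GRCm38.p6) gave 9 windows for the 6 genes, each from 250 bases before a start site to 50 bases after it. They were searched on both strands for CANNTG, the general E-box, for CAGCTG, a form of it preferred by muscle factors, and for GAAANNGAAA, the repeat. Since CAGCTG lies within CANNTG, each of its matches counts for both. In the Apobec2 and Apobec1 windows below, capitals mark CANNTG.
Apobec2, chr17:48432679-48432978, - strand: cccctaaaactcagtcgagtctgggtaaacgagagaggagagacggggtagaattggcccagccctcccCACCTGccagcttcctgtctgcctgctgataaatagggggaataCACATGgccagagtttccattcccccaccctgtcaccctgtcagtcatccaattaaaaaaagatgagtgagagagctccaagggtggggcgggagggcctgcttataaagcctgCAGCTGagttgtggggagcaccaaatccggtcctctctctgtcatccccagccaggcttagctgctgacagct
Apobec1, chr6:122602395-122602694, - strand: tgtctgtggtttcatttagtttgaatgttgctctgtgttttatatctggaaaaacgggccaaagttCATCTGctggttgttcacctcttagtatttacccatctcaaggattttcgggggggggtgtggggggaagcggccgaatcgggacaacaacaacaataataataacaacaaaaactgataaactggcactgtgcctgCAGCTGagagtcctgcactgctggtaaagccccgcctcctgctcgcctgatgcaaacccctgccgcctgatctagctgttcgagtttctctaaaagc
The Apobec2 window held 3 matches to CANNTG, of which the match nearest the start site, at position -23 from it, was CAGCTG. That position counts from the RefSeq start, 48432728. In GENCODE, Apobec2-201 begins at 48432930, so all 3 matches lie downstream of its start. The Apobec1 window held 2, and again the nearer one, at position -47, was CAGCTG. The other members' windows held no CAGCTG. Of all 32851 mouse windows, 16.3% held CAGCTG and 72.3% held CANNTG.

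Windows of the genes with GAAA repeats follow, with the repeat in capitals. The first is at the downstream start site of Adar, the one used by p150, and the next at its upstream start site, shown for contrast.
Adar, downstream start, chr3:89730468-89730767, + strand: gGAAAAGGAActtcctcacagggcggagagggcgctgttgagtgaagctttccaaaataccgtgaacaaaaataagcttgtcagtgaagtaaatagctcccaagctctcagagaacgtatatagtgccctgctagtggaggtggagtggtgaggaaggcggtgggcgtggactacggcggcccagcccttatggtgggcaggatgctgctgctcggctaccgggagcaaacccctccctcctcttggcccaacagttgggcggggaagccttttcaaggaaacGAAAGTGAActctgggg
Adar, upstream start, chr3:89714772-89715071, + strand: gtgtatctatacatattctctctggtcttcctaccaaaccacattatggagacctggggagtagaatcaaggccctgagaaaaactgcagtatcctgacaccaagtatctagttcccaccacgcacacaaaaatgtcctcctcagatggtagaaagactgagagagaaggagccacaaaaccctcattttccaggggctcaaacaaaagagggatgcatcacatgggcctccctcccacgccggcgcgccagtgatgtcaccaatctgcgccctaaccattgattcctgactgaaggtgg
Apobec3, chr15:79892158-79892457, + strand: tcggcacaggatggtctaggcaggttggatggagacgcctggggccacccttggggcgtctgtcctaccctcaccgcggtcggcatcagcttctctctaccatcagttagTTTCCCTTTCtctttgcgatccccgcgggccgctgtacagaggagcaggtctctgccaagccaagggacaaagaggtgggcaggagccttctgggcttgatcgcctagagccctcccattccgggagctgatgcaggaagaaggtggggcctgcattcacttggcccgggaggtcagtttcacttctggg
The full repeat GAAANNGAAA was found in the Apobec3 window alone, on the opposite strand at position -140, where 3.44% of all windows held it. A form shorter by its last base, GAAANNGAA, contained in the full repeat and chosen after the sequences had been seen, also matched in the downstream Adar window, at positions -249 and 33 from the start site. It was held by 8.56% of all windows, and the upstream Adar windows, the second Apobec3 window and the windows of Samhd1 and Adarb1 did not hold it. The Samhd1 and Adarb1 windows held none of the letters searched. For Samhd1 this is limited by its window, which counts from the RefSeq start, 157135096. In GENCODE, Samhd1-201 begins at 157135265 and its coding sequence at 157135182, both upstream of that RefSeq start. The window reaches up to 157135346, so sequence farther upstream of Samhd1-201 was not searched. The matches found in all windows describe sequence only, and no binding was measured.

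Levels are given in FPKM, a fragment count that the authors scaled by gene length and library size, so that levels of different genes can be set side by side per length. Relative depth, read from the smallest steps of the values, of the other libraries was at most 1.13 times that of C2C12 WT replicate 1. Summed FPKM ranged from 289982 to 315742, and mitochondrial genes took 7.32% to 8.49% of it in C2C12 WT and 5.07% to 5.25% in C2C12 Myod1-/- libraries. Myod1 itself was at 17.3, 25.8 and 27.7 FPKM in C2C12 WT and at 0.0614, 0 and 0 FPKM in C2C12 Myod1-/- libraries. Of epithelial and endothelial markers, Krt8, Cdh1, Pecam1, Cdh5, Kdr and Tek were each at or below 0.156 FPKM in every library. Leukocyte markers were mixed: Ptprc and Cd3e were at or below 0.102 FPKM, Csf1r and Adgre1 at 0.160 to 0.366 FPKM, Lyz2 at 0.986 to 1.91 FPKM, and Cd68 rose from 6.32 ± 1.18 to 26.9 ± 0.809 FPKM (SD, n = 3 each). Of the myoblast markers, Des, Cdh15 and Myod1 fell, and Myf5 stood at 5.13 ± 0.929 and 4.84 ± 0.449 FPKM (SD, n = 3 each).

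All 6 genes passed the filter of a mean of 0.5 FPKM and were tested with limma on log2(FPKM + 0.1), in 1 fit over 14045 genes. Rose and fell are used for an adjusted p (Benjamini-Hochberg over all tested genes) under 0.05. In this comparison 27.9% of all tested genes rose and 33.3% fell, 61.1% in all, so a call by itself marks no gene out. Among the 6, Adar, Apobec1, Samhd1 and Adarb1 rose, Apobec2 fell and Apobec3 was not called. The study called a gene a DEG at a log2 fold change of 1 or more in either direction with p up to 0.05 before adjustment. By that rule 3 of the 6 passed, namely Adar, Apobec1 and Apobec2, where 20.3% of tested genes did. The libraries of the genotypes did not overlap for 5 of the 6, which held for 67.9% of tested genes.

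**Figure D1:**
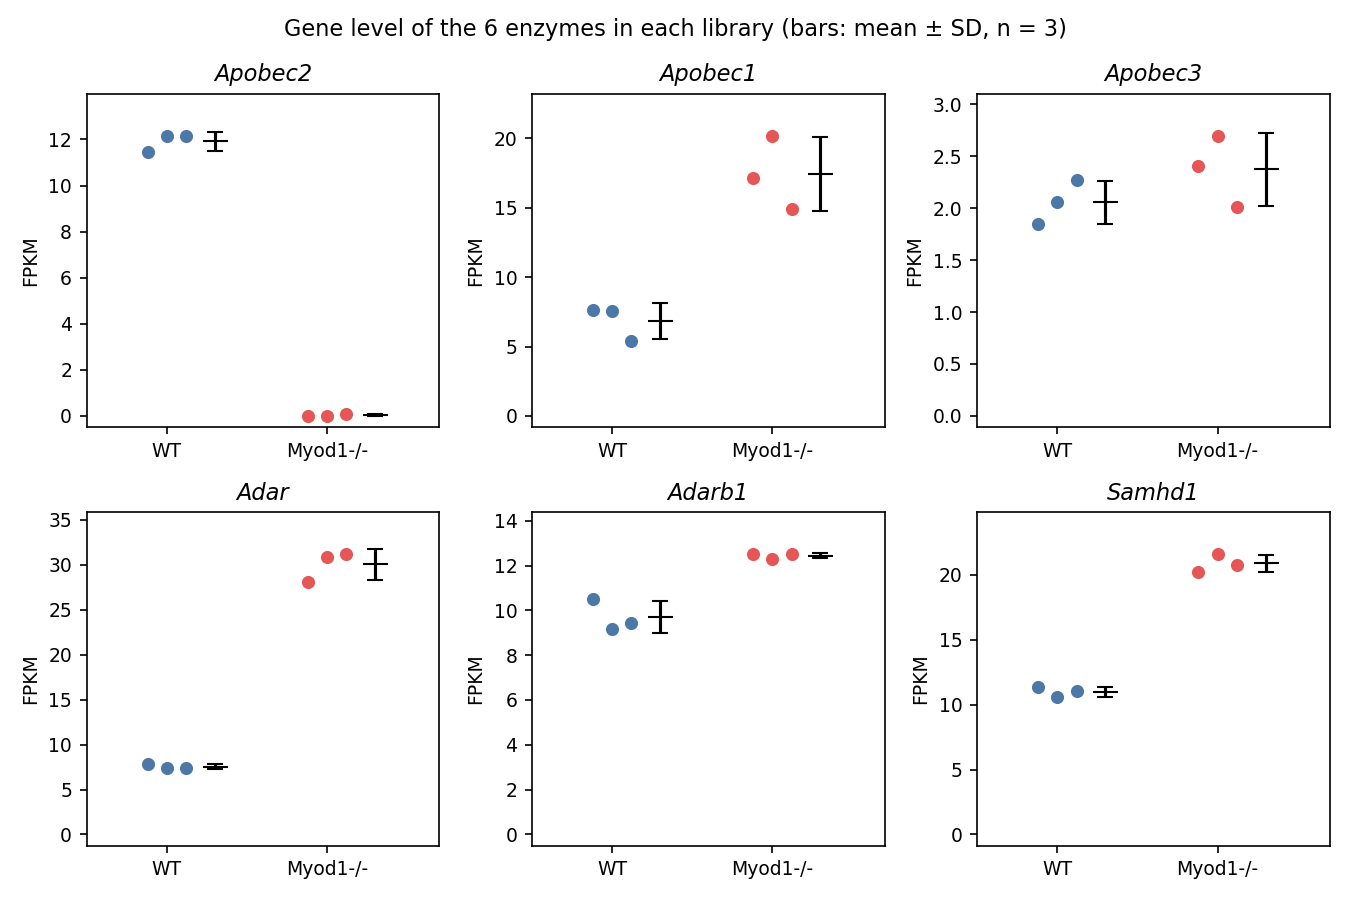
Gene levels in FPKM (vertical axes, 1 panel per gene with its own scale) in the 3 C2C12 WT (blue) and 3 C2C12 Myod1-/- (red) libraries; black marks give the mean and SD. Apobec2 drops from about 12 FPKM to the bottom of its axis, Adar climbs from 7.53 to 30.0 FPKM on average, and only the Apobec3 libraries of the genotypes overlap.

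Apobec2, the muscle member, was nearly lost in the knockout. In C2C12 WT it measured 11.4, 12.2 and 12.1 FPKM, against 0, 0 and 0.0710 FPKM in C2C12 Myod1-/-. The C2C12 WT libraries lay close together, at 11.9 ± 0.411 FPKM (SD, n = 3), and every knockout library was far below them. On the log2(FPKM + 0.1) scale the difference was -6.65 (SE 0.23, adjusted p = 1.68e-06 from limma), and 40 of the 14045 genes had a lower value. That size is set by the constant added, from -9.21 with 0.01 FPKM to -3.66 with 1 FPKM, because 2 of the knockout values are 0. The gene lies on chromosome 17 from 48419231 to 48432728 (GRCm38, - strand, ENSMUSG00000040694), and its listed transcript, Apobec2-201, gave 11.4, 12.2 and 12.1 against 0, 0 and 0.0702 FPKM. In bulk RNA, fewer cells that express a gene and less of its RNA per cell cannot be told apart. A list of 12 muscle differentiation genes moved the same way: 11 passed the filter and all 11 fell, where 33.3% of all tested genes did. Myod1, the gene knocked out, is among these 11. Their median log2 change was -9.73 where the median of all tested genes was -0.05. Of these, 10 passed the filter through the C2C12 WT libraries alone, as Apobec2 did, so their count is a description. They include Acta1, the skeletal muscle actin, at 1689 ± 42.7 and 0.0973 ± 0.0340 FPKM, and Myh3, embryonic myosin heavy chain, at 249 ± 5.53 and 0.0103 ± 0.00961 FPKM (SD, n = 3 each).

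Apobec1, which edits cytidine in transcripts, moved the other way and replaced Apobec2 as the family member with the highest gene FPKM. Its levels were 7.61, 7.54 and 5.38 FPKM in C2C12 WT and 17.1, 20.2 and 14.9 FPKM in C2C12 Myod1-/- libraries. Replicate 3 was the lowest of each genotype, and the genotypes did not overlap. The log2 fold change was 1.34 (SE 0.17, adjusted p = 0.000605 from limma), with 851 of the tested genes above it. Apobec1 had the widest spread among the members with nonzero levels, with a coefficient of variation of 18.6% in C2C12 WT and 15.3% in C2C12 Myod1-/- libraries. It lies on chromosome 6 from 122577792 to 122602444 (- strand, ENSMUSG00000040613). Of its 9 listed transcripts 6 were tested and 1 rose, Apobec1-209, a retained intron without a coding sequence. Apobec1-202, with the full coding sequence of 229 codons, was at 1.07, 0.910 and 0.331 against 3.42, 3.80 and 1.69 FPKM and was not called (log2 difference 1.86, SE 0.51, adjusted p = 0.0754 from limma). Apobec1-201, also of 229 codons, was at 0.254, 0.603 and 0.314 against 3.07, 1.79 and 0.0938 FPKM and was not called. Each listed transcript was far below the gene value in every library.

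Apobec3, the antiviral member, was low in gene FPKM and was not called. It stood at 1.85, 2.06 and 2.27 FPKM in C2C12 WT and at 2.41, 2.70 and 2.01 FPKM in C2C12 Myod1-/- libraries. Knockout replicate 3 fell inside the C2C12 WT range, and the other knockout libraries were above it. The log2 difference of 0.19 (SE 0.14, adjusted p = 0.266 from limma) was not past the threshold. After quantile normalization it was 0.40 with an adjusted p of 0.0378, and over all alternatives that p ranged from 0.0378 to 0.591. None of its 11 tested transcripts was called. One coding transcript, Apobec3-209, was at 3.25, 2.88 and 4.60 FPKM in C2C12 WT libraries, above the value of the whole gene. The gene and transcript values thus differ on the level of Apobec3. The gene, on chromosome 15 from 79891659 to 79915906 (+ strand, ENSMUSG00000009585), overlaps Cbx7 on the opposite strand, which was at 6.30 to 7.51 FPKM in C2C12 WT and 4.11 to 5.79 FPKM in C2C12 Myod1-/- libraries. No use of strand in counting is stated, so reads from their overlap cannot be told apart.

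Set together by gene FPKM, the 3 Apobec genes kept about the same sum and changed in makeup. Summed FPKM was 20.8 ± 0.991 in C2C12 WT and 19.8 ± 2.97 in C2C12 Myod1-/- libraries (SD, n = 3 each; p = 0.60, two-sided exact permutation test). Apobec2 made up 54.8%, 55.9% and 61.4% of that sum in C2C12 WT, against 0%, 0% and 0.419% in the knockout. Apobec1 took 27.2% to 36.4% in C2C12 WT and 87.7% to 88.2% in C2C12 Myod1-/- libraries, and Apobec3 8.85% to 11.5% and 11.8% to 12.3%. For each of the 3 shares the genotypes did not overlap, which with 3 libraries against 3 gives an exact permutation p of 0.10, the smallest possible. The shares are parts of the same sum, so the loss of Apobec2 by itself raises those of Apobec1 and Apobec3. Their separation is therefore a description, and the Apobec3 gene was not called. These shares rest on gene FPKM, and the transcript values do not give the same makeup. In C2C12 WT libraries no Apobec1 transcript was above 1.07 FPKM, while Apobec3-209 alone was at 3.25, 2.88 and 4.60 FPKM. In the knockout, Apobec3-209 was at 3.37, 3.93 and 2.85 FPKM and Apobec1-202 at 3.42, 3.80 and 1.69 FPKM.

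**Figure D2:**
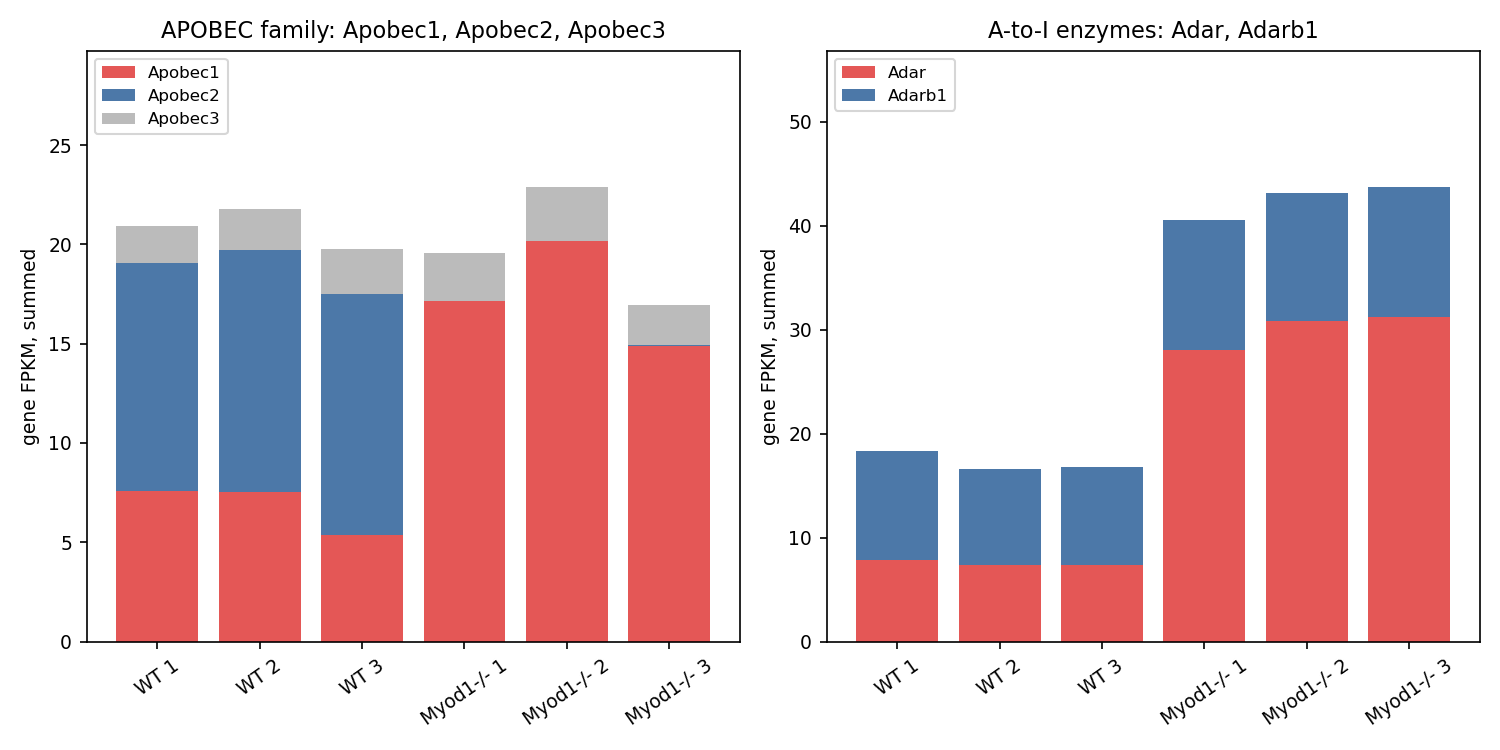
Gene FPKM stacked by library (vertical axes, from 0), with Apobec1, Apobec2 and Apobec3 on the left and Adar and Adarb1 on the right. The height of the Apobec bars stays between 17.0 and 22.9 FPKM while the Apobec2 part vanishes in the knockout, and the height of the ADAR bars goes from at most 18.4 to at least 40.6 FPKM, most of it Adar.

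Adar, the inosine-forming enzyme with an interferon-induced form, had the largest rise of the 6. Its levels were 7.83, 7.40 and 7.37 FPKM in C2C12 WT and 28.1, 30.9 and 31.2 FPKM in C2C12 Myod1-/- libraries. Each knockout library was more than 3 times as high as each C2C12 WT library. The means of 7.53 ± 0.262 and 30.0 ± 1.72 FPKM (SD, n = 3 each) differ 3.99-fold, and the log2 fold change was 1.98 (SE 0.06, adjusted p = 9.05e-07 from limma). Only 3.38% of tested genes had a higher value. Adar lies on chromosome 3 from 89715022 to 89753446 (+ strand, ENSMUSG00000027951) and overlaps Chrnb2 on the opposite strand, which was at 0.239 to 0.343 FPKM in C2C12 WT and 0.672 to 1.12 FPKM in C2C12 Myod1-/- libraries.

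Adarb1, the other active ADAR, changed little beside it. It was at 10.5, 9.16 and 9.44 FPKM in C2C12 WT and at 12.5, 12.3 and 12.5 FPKM in C2C12 Myod1-/- libraries. The knockout libraries were almost equal to each other and all above the C2C12 WT libraries. With a log2 difference of 0.36 (SE 0.06; limma, adjusted p = 0.00314) it passed the threshold for a rise, but this is 1.28-fold, and 25.6% of tested genes had a higher value. The order of both ADAR genes turned: the ratio of Adar to Adarb1 was 0.744, 0.807 and 0.780 in C2C12 WT and 2.24, 2.51 and 2.49 in C2C12 Myod1-/- libraries. The ratios did not overlap between genotypes (exact permutation p = 0.10, the smallest possible). At the transcript level none of 7 tested Adarb1 transcripts was called, and the split among them was unstable, as Adarb1-205 was at 12.5, 0 and 4.75 against 0, 3.74 and 0.580 FPKM. The gene lies on chromosome 10 from 77290726 to 77418270 (- strand, ENSMUSG00000020262).

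Samhd1, the dNTP hydrolase, rose by nearly the factor that the thresholds for DEGs ask for. Its levels were 11.3, 10.6 and 11.1 FPKM in C2C12 WT and 20.2, 21.6 and 20.8 FPKM in C2C12 Myod1-/- libraries. The replicates lay close together in each genotype and the genotypes were far apart. The log2 fold change was 0.92 (SE 0.05, adjusted p = 1.19e-05 from limma), a ratio of means of 1.90. The gene lies on chromosome 2 from 157097533 to 157135265 (- strand, ENSMUSG00000027639). Of its 10 transcripts, all tested, 3 rose: Samhd1-206, which is protein-coding, Samhd1-204, annotated for nonsense-mediated decay, and Samhd1-208, a retained intron. The StringTie split was uneven between replicates for others, since Samhd1-202 was at 3.97 FPKM in C2C12 WT replicate 1 and at 0.451 and 0.321 FPKM in the other two.

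The order of gene FPKM within a genotype changed with these shifts. This order rests on gene values, from which the transcript values of Apobec1 and Apobec3 differ. In C2C12 WT cells Apobec2 was highest, followed by Samhd1, Adarb1, Adar, Apobec1 and Apobec3, and only Adar and Apobec1 overlapped among neighbours in that order. In C2C12 Myod1-/- cells the order was Adar, Samhd1, Apobec1, Adarb1, Apobec3 and Apobec2, and no neighbours overlapped.

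Adar has 8 listed transcripts, 5 of them with a coding sequence. Adar-203 and Adar-201 begin at the downstream start, at 89730748 on chromosome 3, and their coding sequences of 1178 and 1152 codons begin at 89730811, which makes them p150. Adar-202 begins at the upstream start, at 89715022, and has a coding sequence of 930 codons, the short form. Adar-203 was at 4.95, 5.05 and 5.33 FPKM in C2C12 WT and at 19.1, 15.0 and 23.7 FPKM in C2C12 Myod1-/- libraries. Adar-202 was at 4.18, 4.06 and 3.80 FPKM in C2C12 WT and at 12.9, 20.1 and 13.8 FPKM in C2C12 Myod1-/- libraries. Both were higher in every knockout library, with log2 fold changes of 1.87 (SE 0.19, adjusted p = 0.00247 from limma) and 1.90 (SE 0.20, adjusted p = 0.00288 from limma). The knockout library with the most Adar-202, replicate 2, had the least Adar-203.

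In all, 4 of the 6 tested Adar transcripts rose and none fell, in a fit of 65497 transcripts of which 6.28% rose and 6.55% fell. The remaining pair were Adar-201, at 1.03, 0.911 and 0.858 against 1.60, 3.10 and 2.58 FPKM, and Adar-207, without a coding sequence, at 0.929, 0.793 and 0.482 against 3.23, 2.02 and 3.49 FPKM. Their log2 fold changes were 1.25 (SE 0.29, adjusted p = 0.0467 from limma) and 1.86 (SE 0.33, adjusted p = 0.0200 from limma). These calls were less firm than those of Adar-203 and Adar-202, which held under all 12 alternatives each. The count went from 4 to 2 without C2C12 WT replicate 2, C2C12 WT replicate 3 or C2C12 Myod1-/- replicate 3. Adar-205 was at 1.56 FPKM and Adar-204 at 0.459 FPKM in C2C12 Myod1-/- replicate 1, and both were listed at 0 elsewhere. Adar-209 and Adar-208, which also lack a coding sequence, were at or below 0.384 FPKM in every library.

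Transcripts of both start sites rose, and the share of p150 did not differ beyond the spread between libraries. The p150 transcripts took 52.4%, 53.6% and 57.8% of summed Adar transcript FPKM in C2C12 WT and 52.8%, 44.7% and 59.8% in C2C12 Myod1-/- libraries. Knockout libraries lay on either side of the C2C12 WT range. The means of 54.6% ± 2.84 and 52.4% ± 7.53 (SD, n = 3 each) differed by -2.20 percentage points (p = 0.80, two-sided exact permutation test, smallest possible p 0.10), and without C2C12 Myod1-/- replicate 2 by 1.65 percentage points. Summed Adar transcript values exceed the gene value, 11.4 against 7.83 FPKM in C2C12 WT replicate 1 for example. The Adar levels of the 2 tables are therefore not set against each other. Since both forms share most of their exons, the split rests on the reads of the first exons and on StringTie's model.

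**Figure D3:**
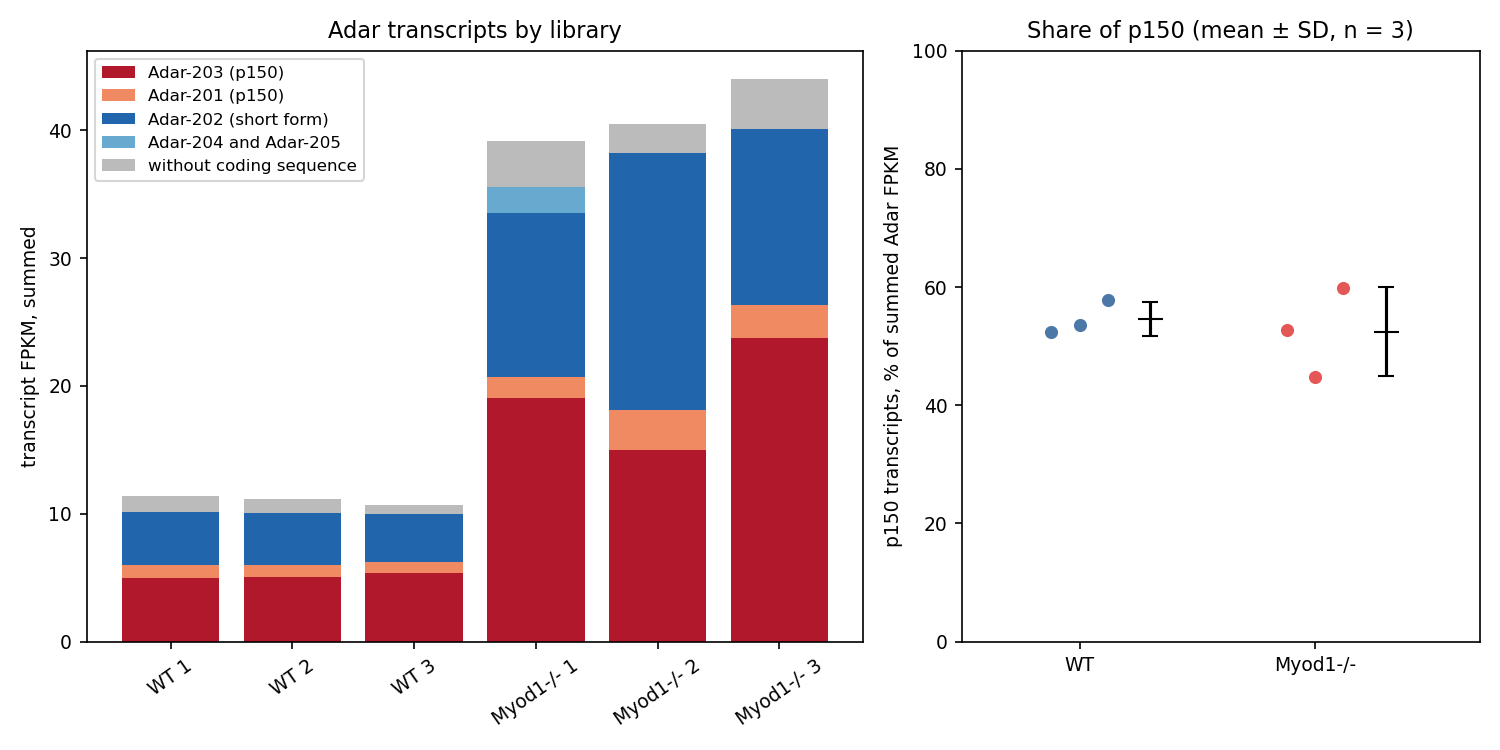
Left, FPKM of Adar transcripts stacked by library; right, the p150 transcripts (Adar-203 and Adar-201) as a percentage of summed Adar transcript FPKM, with mean and SD. Bars grow from about 11 to at least 39.2 FPKM while the p150 share stays at 54.6% and 52.4% on average.

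Beside Adar, Apobec1 and Samhd1, many interferon-linked genes rose, most of them by more. Whether these rises share a cause was not tested. All 16 genes of a list of interferon-stimulated genes rose, with a median log2 change of 4.04 and values from 1.06 to 8.02. Of the 16, 2 passed the filter through the knockout libraries alone. Among all tested genes 27.9% rose. Since the list was chosen with earlier results of these data known, its count is a description. Adar was above 2 of the 16 in its change, Apobec1 above 1, and Samhd1, Adarb1 and Apobec3 above none. Examples are Isg15, an interferon-induced ubiquitin-like protein, at 20.5 ± 2.14 and 346 ± 15.7 FPKM, and Ifit3, an antiviral effector, at 47.6 ± 1.98 and 1179 ± 25.5 FPKM (SD, n = 3 each). Double-stranded RNA is the substrate of ADAR enzymes. Of 8 listed genes of its sensing, 7 were tested and 6 rose, with a median log2 change of 2.67. Tlr3, 1 of them, passed the filter through the knockout libraries alone. Zbp1, which binds Z-form nucleic acids through a domain type that it shares with p150, went from 3.22 ± 0.0905 to 74.7 ± 1.53 FPKM, and Ifih1, the sensor MDA5, from 2.23 ± 0.313 to 15.4 ± 0.408 FPKM (SD, n = 3 each). Eif2ak2, the kinase PKR, rose by 1.81 and Ddx58, the sensor RIG-I, by 2.31 on the log2 scale. Mavs, on the same list but the adaptor of both RNA helicase sensors, was at 11.2 ± 0.725 and 10.9 ± 0.831 FPKM (SD, n = 3 each) and was not called.

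**Figure D4:**
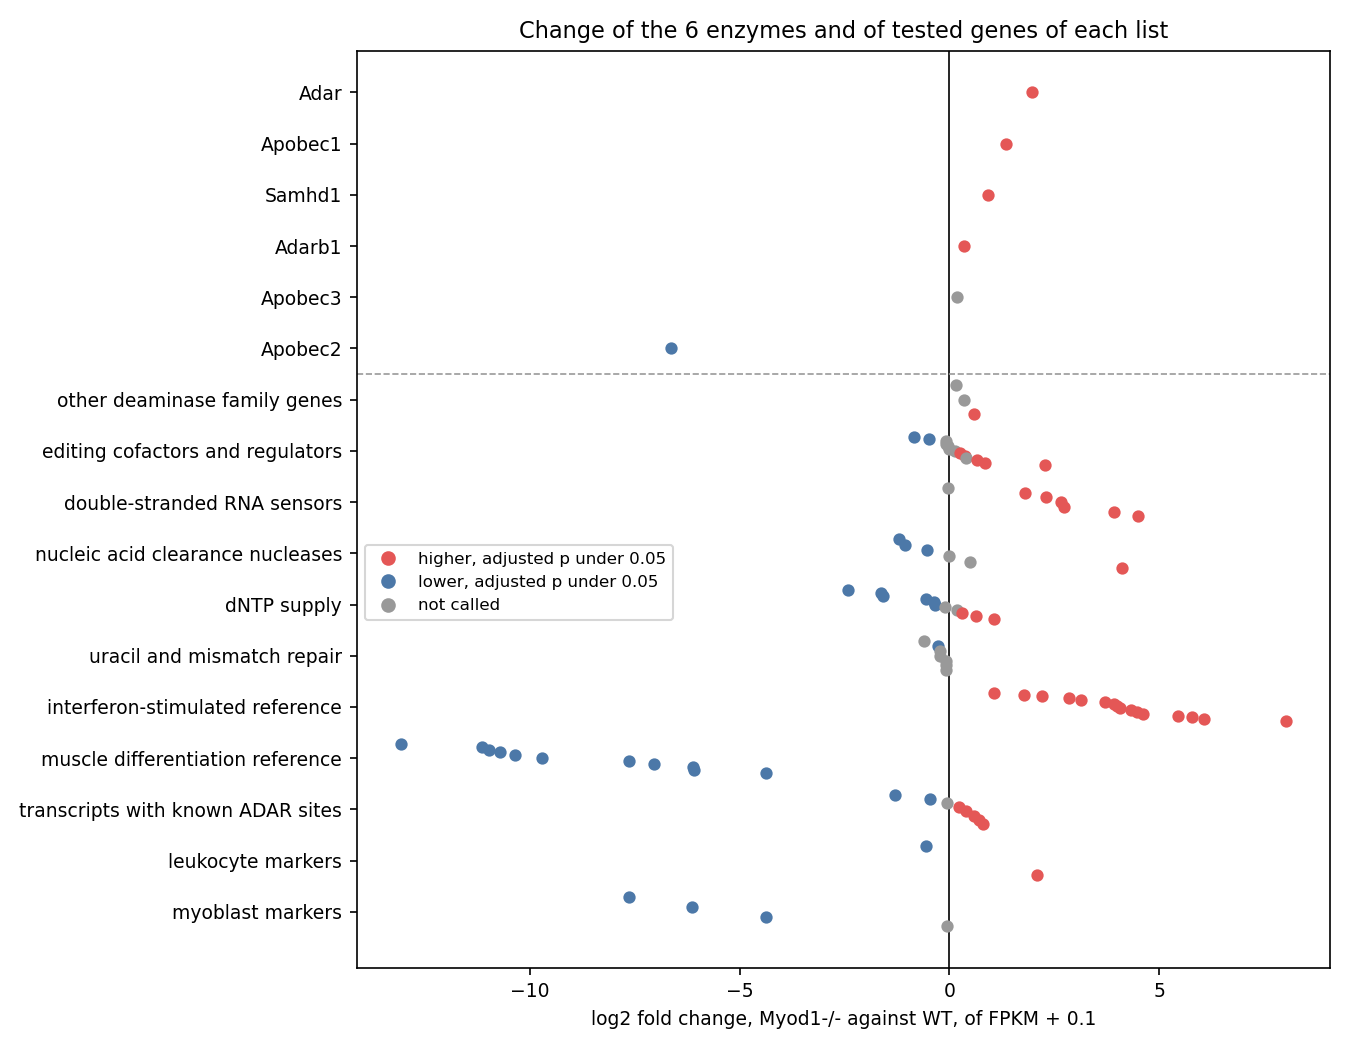
Log2 fold change of FPKM + 0.1, C2C12 Myod1-/- against C2C12 WT (horizontal axis), of each of the 6 genes (above the dashed line) and of the tested genes of each list (below), with red for higher and blue for lower at an adjusted p under 0.05 and grey for genes not called. All 16 interferon-stimulated genes lie to the right and all 11 muscle genes to the left, and the enzymes other than Apobec2 lie between 0.19 and 1.98.

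Genes with which the enzymes work changed in both directions. Of 13 tested cofactors and regulators of editing 5 rose and 2 fell, with a median log2 change of 0.13. Among all tested genes 27.9% rose and 33.3% fell, so these counts by themselves mark nothing out. Rbm47, a partner of APOBEC1 in editing, rose from 0.113 ± 0.0184 to 0.929 ± 0.00677 FPKM (SD, n = 3 each). It passed the filter through the knockout libraries alone, it drops out without any 1 of them or at a mean of 1 FPKM, where 4 genes of the list rose, and its log2 change lay between 0.79 and 2.94 under the 11 alternatives that kept it. Tnpo1, which carries ADAR1 into the nucleus, rose from 26.4 ± 1.81 to 41.5 ± 0.628 FPKM (SD, n = 3 each). Wwp2, a ubiquitin ligase for ADAR2, rose by 0.85 on the log2 scale. Aimp2, described as a negative regulator of both ADAR proteins, fell by 0.85 on the log2 scale, and Khsrp, an RNA-binding protein, was at 45.2 ± 2.41 and 44.2 ± 3.17 FPKM (SD, n = 3 each). Of 3 other deaminases tested, Adat2, a subunit of the tRNA adenosine deaminase, rose from 4.40 ± 0.978 to 6.52 ± 0.0802 FPKM (SD, n = 3 each), a call that was lost without C2C12 Myod1-/- replicate 1 or 3 (adjusted p of 0.0517 and 0.0538 from limma). Adat1, at 1.39 ± 0.152 and 1.55 ± 0.0661 FPKM (SD, n = 3 each), and Adat3, its levels 0.702 to 5.41 FPKM in C2C12 WT and 2.44 to 5.82 FPKM in C2C12 Myod1-/- libraries, were not called. Adarb2, a brain relative of Adarb1, was at or below 0.0137 FPKM in every library.

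Around Samhd1, genes that supply dNTPs fell more often than they rose. Of 11 tested, 6 fell and 3 rose, with a median log2 change of -0.34. With 1 library left out 4 to 6 fell and 2 to 3 rose. Of all tested genes 33.3% fell and 27.9% rose. The subunits of ribonucleotide reductase, Rrm1 and Rrm2, both fell, Rrm1 from 8.77 ± 0.328 to 2.79 ± 0.259 and Rrm2 from 24.7 ± 0.373 to 4.59 ± 0.315 FPKM (SD, n = 3 each). Dck, deoxycytidine kinase, fell by 1.57 on the log2 scale, while Dut, which clears dUTP, rose by 1.06. Of 6 nucleases that clear nucleic acids 1 rose and 3 fell. Trex1, a DNA exonuclease, rose from 2.09 ± 0.355 to 39.0 ± 14.3 FPKM, and Rnaseh2a, a subunit of ribonuclease H2, fell from 6.01 ± 0.108 to 2.86 ± 0.111 FPKM (SD, n = 3 each). The fall of Rnaseh2c, another subunit, was lost without each of 5 libraries, all but C2C12 WT replicate 1. Of 7 tested genes of uracil and mismatch repair, which act on deaminated DNA, 1 fell. That count was 0 without C2C12 WT replicate 3, C2C12 Myod1-/- replicate 1 or C2C12 Myod1-/- replicate 2, and 2 without C2C12 WT replicate 2. Apex1, the endonuclease of abasic sites, was at 17.4 ± 1.93 and 14.9 ± 0.494 FPKM (SD, n = 3 each) and was not called.

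Transcripts with ADAR sites known from mouse or human tissue were not uniform either. Of 8 tested, 5 rose and 2 fell, with a median log2 change of 0.32, where 27.9% of all tested genes rose and 33.3% fell. Blcap rose by 0.70 on the log2 scale, while Igfbp7 and Flna fell by 1.31 and 0.46. The tables hold expression only, and editing of these transcripts was not measured.

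Marker genes of leukocytes, where Apobec1, Apobec3 and Samhd1 are also expressed, were examined beside them. Of 8 listed, 2 passed the filter: Cd68, a lysosomal protein of macrophages, went from 5.24, 6.13 and 7.58 to 27.8, 26.6 and 26.3 FPKM and rose, and Lyz2 fell with a log2 change of -0.55, which was not past the threshold without C2C12 WT replicate 1 or 2 or C2C12 Myod1-/- replicate 3. The summed level of the list was 7.58 to 9.73 FPKM in C2C12 WT and 27.8 to 29.8 FPKM in C2C12 Myod1-/- libraries. Cd68 made up 69.2% to 77.9% of that sum in C2C12 WT and 93.3% to 94.7% in C2C12 Myod1-/- libraries, and the part of these markers in the results was not tested. Ptprc, the pan-leukocyte antigen, was at or below 0.0218 FPKM, in all libraries.

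Genes with the pattern most like each member over the 6 libraries were ranked by Pearson's r of log2(FPKM + 0.1), as a description, since all points share the 2 genotypes. Closest to Adar were Eaf1, Cog3 and Nr1d2, with r of 0.9997 or more, but 1008 of 14044 other genes had an r of at least 0.99. For Apobec2, with Ppp2r2b, Tedc1 and Neurl1a closest, that number was 1010, and for Samhd1, with Klf10, Timp2 and Glipr2 closest, 965. Adarb1 came closest to Mmp16, Mdn1 and Pi4ka and had 104 such genes. Apobec1, with its low replicates 3, had 36, led by Cplx2, Brms1 and Mcrs1. Apobec3 had 1, Gm9118, before Gnptg and Nmnat3.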

How the data were processed

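RNA was sequenced from 3 C2C12 WT and 3 C2C12 Myod1-/- samples. According to the study and the submitters' processing notes, total RNA was depleted of rRNA and made into libraries with an NEBNext Ultra kit for a NovaSeq instrument. Reads went through bcl2fastq, fastp and FastQC, HISAT2 or TopHat mapped them to GRCm38, and StringTie quantified them. Tool versions and the annotation are not given in the sources used here. The deposited values are FPKM computed by the authors, for 28892 genes and 92513 transcripts. They are normalized by length and library and hold no counts, and no count model was used. For genes with 1 transcript, 99.5% to 99.6% of low values lay within 0.1 of whole multiples of a smallest step, from which relative depth was read. As shares of a library, they shift for every gene when abundant genes change.

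Column names of the tables were assigned to samples through the genotype headings of a table in the study's supplement, in which 3192 of 3192 genes matched in all 6 columns (relative difference up to 0.001). GENCODE M21 (GRCm38) held 99.7% of the gene identifiers, 95.9% of those at the position given in the files. Positions of genes are those of the files, transcript structures those of GENCODE and promoters those of RefSeq. All 6 members matched a promoter. Proteins were not used here.

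On the log2(FPKM + 0.1) scale, the 14045 genes averaging 0.5 FPKM or more and the 65497 transcripts averaging 0.1 FPKM or more were fitted by genotype with limma 3.58.1 in R 4.3.3 (eBayes with an intensity trend) and adjusted by Benjamini-Hochberg over each table. The fit was also run on simulated data in which few genes changed and libraries were drawn independently. That run checks the code and not the p-values of these data, where most tested genes were called. Shares were compared with two-sided exact permutation tests (scipy 1.17.1 in Python 3.11.15). The alternatives were other pseudocounts, filters, scalings and variance models, a replicate block and each library left out. Nothing in the sources says that the samples of a genotype came from separate cultures, so p-values may measure technical spread only.

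The members and lists were chosen with earlier results of these data known. Genes are named by rule: all members and Adar transcripts, from each list at most 3 tested genes by mean level and at most 3 by size of change, and the 3 genes most like each member. Mavs, Myf5, Adarb2, Cbx7, Chrnb2 and the markers at low levels fall outside it and were named after their values were seen. Where a symbol had 2 identifiers (Adat3, Itgam), that with the higher mean was used. Adad1, Adad2, A1cf, Ms4a1, Epcam and Krt18 were not analysed here. Some genes of the lists are counted but not reported here by name.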

Additional observations from a re-analysis of the deposited data

How the results depend on the processing

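The calls of Adar, Adarb1, Apobec1, Apobec2 and Samhd1 kept their direction and their side of the threshold under all 15 alternatives each, with log2 fold changes of 1.86 to 2.03, 0.32 to 0.42, 1.18 to 1.45, -9.21 to -3.66 and 0.87 to 0.96. Apobec3 ranged from 0.10 to 0.40 and passed the threshold only after quantile normalization (0.40). The count of Adar transcripts that rose was 2 with the replicate block and 2 to 3 with 1 library left out. The difference in p150 share ranged from -5.87 to 1.65 percentage points with 1 library left out and reversed without C2C12 Myod1-/- replicate 2. It was -3.06 over coding transcripts and -0.48 over all coding transcripts from the downstream start, a choice made after seeing the data.

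Among the lists, rises of other deaminases numbered 2 without the filter and 2 after quantile normalization, and 0 to 1 with 1 library left out. Rises of nucleases numbered 2 after median of ratios scaling, 2 after quantile normalization, 2 without mitochondrial genes and 1 to 2 with 1 library left out. Falls of repair genes numbered 0 without mitochondrial genes, 0 with the replicate block and 0 to 2 with 1 library left out, and falls of leukocyte markers 0 after quantile normalization and 0 to 1 with 1 library left out. Of genes not called, Khsrp changed sign to 0.0087 after median of ratios scaling and 0.0023 without mitochondrial genes and ranged from -0.076 to 0.026 with 1 library left out, and Smug1 from -0.38 to 0.040 (above 0 without C2C12 WT replicate 3). The cause was not tested.

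Equal replicate numbers did not pair the samples: correlations of same-numbered deviations were -0.14 to -0.03, and 0 of 6 libraries correlated best with their own number. With the replicate block 7839 genes were called instead of 8584. Values near 0, such as those of Apobec2 in the knockout, are limited by depth, which is known only from the steps of low values.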
